A study of Mus musculus with 2 samples.

Results

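The pericyte genes Rgs5, Notch3, Abcc9, Kcnj8, Steap4 and Ndufa4l2 were followed in single cells of the aortic arch. A barcode, the tag of 1 droplet and so usually of 1 cell, was counted as a member when at least 3 of these 6 genes had a UMI (unique molecular identifier, 1 counted RNA molecule) and 1 of these was Abcc9 or Kcnj8. Of 8155 barcodes that met the study's filter, 296 were members. In the ND library 146 of 5416 barcodes passed, a share of 2.70% (2.28 to 3.16%), and in the HFD library 150 of 2739 passed, a share of 5.48% (4.65 to 6.40%). The values in parentheses are exact 95% intervals here and throughout, by Clopper-Pearson for shares, Poisson for sums and the conditional binomial for ratios. They express counting error alone, and differences from mouse to mouse are not in them.

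All mice were Apoe-/- males on the C57BL/6 strain and 16 weeks old, so the controls carried the deletion of apolipoprotein E as well. The HFD group was fed a high-fat, high-cholesterol diet for about 12 weeks from weaning at 4 weeks of age, and the ND group was fed chow. Cells of the arches of 2 aortas per group were pooled as a suspension and sequenced as 1 library on the 10x Genomics platform. With 1 pooled library per diet there was no replicate, no difference between diets was tested, and diet and library cannot be told apart. Both values are given in place of a test.

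Pericytes are mural cells that sit within the basement membrane of capillaries and small venules, where they contact the endothelium and take part in vessel stability and blood flow. Their recruitment depends on PDGF-B from endothelial cells and its receptor on the mural cell, and NOTCH3 signalling keeps mural cells differentiated. Kcnj8 encodes the pore Kir6.1 and Abcc9 the regulatory subunit SUR2 of the vascular ATP-sensitive potassium channel, which links metabolism to membrane potential. RGS5 is a regulator of G protein signalling, STEAP4 a metalloreductase and NDUFA4L2 a paralog of a respiratory chain subunit that is induced in low oxygen.

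The channel genes that the rule required lie side by side. Kcnj8 was annotated at chr6:142564837-142571614 and Abcc9 at chr6:142587862-142702315, both on the minus strand of GRCm38 (GENCODE M21), with 16247 bp between them. Rgs5 lies at chr1:169655501-169695813 and Steap4 at chr5:7960457-7982213, both on the plus strand. The bases before the start of these genes are shown because the members were chosen for carrying their transcripts together. They come from RefSeq on GRCm38.p6 and cover chr6:142571615-142571864 for Kcnj8, chr6:142702316-142702524 for Abcc9, chr1:169655251-169655500 for Rgs5 and chr5:7960222-7960456 for Steap4, each written 5′ to 3′ on the strand of its gene. Capitals mark TGGGAA, the core letters of the motif of RBPJ, the DNA-binding partner of Notch receptors, on either strand.
Kcnj8: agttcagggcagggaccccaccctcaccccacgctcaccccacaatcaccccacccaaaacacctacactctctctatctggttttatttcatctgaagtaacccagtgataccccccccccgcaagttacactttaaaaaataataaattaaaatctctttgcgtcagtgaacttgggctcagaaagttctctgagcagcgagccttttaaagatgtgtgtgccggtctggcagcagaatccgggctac
Abcc9: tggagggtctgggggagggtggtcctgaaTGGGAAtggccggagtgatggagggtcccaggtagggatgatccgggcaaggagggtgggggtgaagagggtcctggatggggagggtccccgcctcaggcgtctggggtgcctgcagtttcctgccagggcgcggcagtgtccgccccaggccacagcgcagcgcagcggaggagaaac
Rgs5: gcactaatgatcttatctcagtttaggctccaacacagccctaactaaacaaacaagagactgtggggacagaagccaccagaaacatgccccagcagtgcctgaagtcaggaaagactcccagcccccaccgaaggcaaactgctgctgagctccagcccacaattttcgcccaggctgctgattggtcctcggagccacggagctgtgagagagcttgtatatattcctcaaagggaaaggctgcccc
Steap4: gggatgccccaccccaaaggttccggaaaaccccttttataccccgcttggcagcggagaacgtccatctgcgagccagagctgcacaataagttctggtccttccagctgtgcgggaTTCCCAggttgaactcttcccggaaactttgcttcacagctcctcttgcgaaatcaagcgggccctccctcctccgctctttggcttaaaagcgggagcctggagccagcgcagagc

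The letters were found once before Abcc9, beginning 180 bases upstream of its GENCODE start, and once on the opposite strand before Steap4, beginning 117 bases upstream. They were not in the 250 bases before Kcnj8, Rgs5 or Notch3, and 5 of the 6 genes had a sequence to search. Of 32851 mouse promoters of the same length, 7094 (21.6%) held the letters, so 2 of 5 is a description of these windows and says nothing of binding.

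The ND barcodes held a median of 3732.5 UMIs and the HFD barcodes 5336, with medians of 16.8% and 21.9% mitochondrial UMIs. Members ranged from 1298 to 37282 UMIs in ND and from 1240 to 61381 in HFD. Because a deeper barcode passes a gate of UMIs more easily, each barcode was also thinned to 1000 UMIs before the rule, which left 33 of 5353 ND barcodes (0.616%) and 45 of 2739 HFD barcodes (1.64%). For this, 63 shallower ND barcodes and no HFD barcode were left out. The share was the higher in HFD on either count. One sequence tag among the kept barcodes occurred in both libraries, and none among the members.

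The members were of 3 kinds, which differed in the other cell type whose genes they carried. UMIs of both endothelial genes Pecam1 and Cdh5 were found in 64 of 146 ND members (43.8%, 35.6 to 52.3%) and in 101 of 150 HFD members (67.3%, 59.2 to 74.8%). Of the 131 members without both, 106 had a UMI of at least 5 of 10 fibroblast genes (Pdgfra, Dpt, Lum, Dcn, Pi16, Clec3b, Col1a1, Gsn, Serping1 and Tcf21) and are called fibroblast-rich. These were 68 members in ND (46.6%) and 38 in HFD (25.3%). The remaining 25, 14 in ND (9.59%, 5.34 to 15.6%) and 11 in HFD (7.33%, 3.72 to 12.7%), are called fibroblast-poor. This split by fibroblast genes was chosen after the values were seen. Each member was placed by its summed level of 18 endothelial genes other than Pecam1 and Cdh5 and of the 10 fibroblast genes, of which the latter made the split, so that the distance along them was fixed by it.

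**Figure D1:**
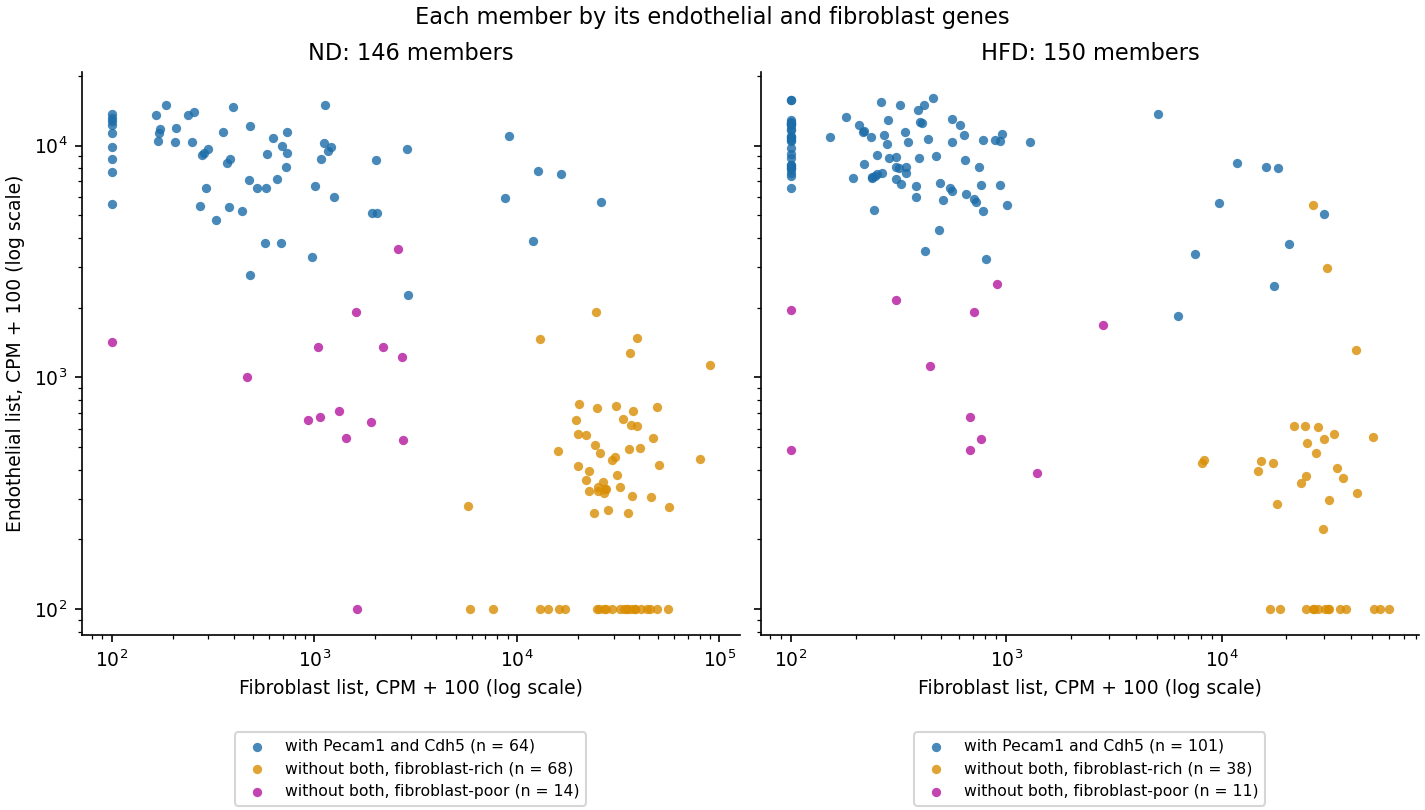
Each point is 1 member of the ND (left) or HFD (right) library, with 1 mark for each of the 3 kinds. It is placed by its summed level of the 10 fibroblast genes (horizontal) and of the 18 endothelial genes (vertical). Levels are in CPM with 100 added on log axes. Members with both Pecam1 and Cdh5 lie at the top and fibroblast-rich members without both to the right. The 14 ND and 11 HFD fibroblast-poor members without both lie at the lower left.

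Levels are given as CPM, the UMIs of a gene summed over the barcodes of a group as counts per 1e6 UMIs of that group. Members are set beside kept barcodes that were not members. The 2067 ND and 1141 HFD endothelial barcodes had both Pecam1 and Cdh5, no Ptprc (CD45) and fewer than 5 of the 10 fibroblast genes. The 924 and 397 fibroblast barcodes had at least 5 of these genes, no Ptprc and not both Pecam1 and Cdh5. The 45 and 21 smooth muscle barcodes had Myh11 and at least 3 of 7 contractile genes. No such limit on fibroblast genes or Ptprc was set for members with both.

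The 6 genes of the rule were not spread evenly over the kinds, and since the rule used them their levels are a description. All 25 fibroblast-poor members carried both Rgs5 and Notch3, and all 6 genes were found in 7 of 14 in ND and 8 of 11 in HFD. The members with both Pecam1 and Cdh5 carried Rgs5 and Notch3 together in 51 of 64 ND and 73 of 101 HFD barcodes, and all 6 genes in 21 and 35. The fibroblast-rich members mostly passed at the limit of the rule, with exactly 3 genes in 55 of 68 ND and 31 of 38 HFD barcodes. In 44 ND and 29 HFD fibroblast-rich members, Abcc9 and Steap4 were present without Rgs5, and Rgs5 and Notch3 were together in 0 and 3 barcodes.

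Rgs5 per fibroblast-poor barcode ranged from 1 through a median of 17.5 to 35 UMIs in ND and from 1 through a median of 21 to 40 UMIs in HFD. Among the members with both it ranged from 0 through a median of 26 to 82 UMIs in ND and from 0 through a median of 19 to 58 UMIs in HFD, and a UMI was found in 61 of 64 ND and 95 of 101 HFD barcodes. Of the fibroblast-rich members, 15 of 68 ND and 7 of 38 HFD barcodes had a UMI of Rgs5, and the highest held 24 and 11. Summed, Rgs5 was 4526 CPM (3949 to 5164) in ND and 5136 CPM (4498 to 5839.7) in HFD in the fibroblast-poor members, 3195 CPM (3053 to 3342) in ND and 2391 CPM (2284 to 2502) in HFD in the members with both and 159.6 CPM in ND and 94.6 CPM in HFD in the fibroblast-rich members. Lymphocyte barcodes (789 in ND and 51 in HFD, with at least 2 of Cd3d, Cd3e, Cd3g, Cd79a, Cd79b and Ms4a1), which should lack Rgs5, held 7.68 and 17.8 CPM, and endothelial barcodes 107 and 154 CPM. The fibroblast-poor members therefore held the highest Rgs5 level of the 3 kinds in both libraries, and the fibroblast-rich members the lowest.

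Notch3, the mural Notch receptor, followed the same order, with 1679 CPM in ND and 794 CPM in HFD in the fibroblast-poor members, 372 and 244 CPM in the members with both and 27.6 and 51.6 CPM in the fibroblast-rich ones. Smooth muscle barcodes also carried Notch3, at 735 and 393 CPM. Abcc9 was high in all 3 kinds, as the rule asked, at 1106 and 1433 CPM, 392 and 519 CPM and 488 and 632 CPM in the same order. In kept barcodes that were not members, Abcc9 was 165 and 100.3 CPM in fibroblast barcodes, 51.5 and 27.3 CPM in smooth muscle barcodes and 2.51 and 5.52 CPM in endothelial barcodes. Fibroblast barcodes thus held more Abcc9 than the other non-members compared.

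Kcnj8 was 553 CPM (364 to 805) in ND and 948 CPM (686 to 1277) in HFD in the fibroblast-poor members, where 9 of 14 ND and 8 of 11 HFD barcodes had a UMI. It was 121 and 212 CPM in the members with both, 135 and 168 CPM in the fibroblast-rich members and 7.35 and 0 CPM in smooth muscle barcodes. Abcc9 and Kcnj8 were found in the same barcode in 8 of 14 ND and 8 of 11 HFD fibroblast-poor members, 27 of 64 and 52 of 101 members with both, and 32 of 68 and 20 of 38 fibroblast-rich members. Their paralogs Kcnj11 and Abcc8, which form the channel of pancreatic beta cells, had 0 UMIs in all members. Steap4 was 1475 and 992 CPM, 412 and 304 CPM and 359 and 555 CPM in fibroblast-poor members, members with both and fibroblast-rich members, beside 115 and 281 CPM in fibroblast barcodes.

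The label of these cells was checked against 25 pericyte genes that the rule did not use. Their summed level in the fibroblast-poor members was 8192 CPM (7409 to 9036) in ND and 7120.0 CPM (6365 to 7940.4) in HFD, with 24 of the 25 genes counted. In the members with both it was 2475 CPM (2351 to 2605) in ND and 2335 CPM (2229.7 to 2445) in HFD, and in the fibroblast-rich members 1427 CPM in ND and 1321 CPM in HFD. The same genes summed to 4615 and 2852 CPM in smooth muscle barcodes, 1361 and 1226 CPM in fibroblast barcodes and 508 and 455 CPM in endothelial barcodes. The fibroblast-rich members thus stood close to fibroblast barcodes in these genes, the members with both above endothelial barcodes and the fibroblast-poor members above smooth muscle barcodes. Per barcode, the fibroblast-poor members ranged from 3056 through a median of 8128 to 15056 CPM in ND and from 3309 through 8065 to 15823 CPM in HFD.

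Higd1b, a mitochondrial protein gene that marks pericytes in many tissues, separated the kinds plainly. It was 430.1 CPM (266 to 657) in ND and 441 CPM (269 to 681) in HFD in the fibroblast-poor members and 99.2 and 158 CPM in the members with both. In the fibroblast-rich members it had 0 UMIs in ND and 12.9 CPM in HFD, where 1 of 38 barcodes held it. It was 1.58 and 3.54 CPM in endothelial barcodes, 69.9 and 65.6 CPM in smooth muscle barcodes and 0 in fibroblast barcodes of both libraries. Pdgfrb, the receptor for PDGF-B, was less selective, at 1044 and 1080.1 CPM in the fibroblast-poor members, 235 and 296 CPM in the members with both, 328 and 206 CPM in the fibroblast-rich members and 146 and 69.9 CPM in fibroblast barcodes.

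Other genes of the list had the same order. Art3, an ADP-ribosyltransferase gene, was 430.1 and 969.9 CPM, 149.7 and 191 CPM and 6.14 and 12.9 CPM in fibroblast-poor members, members with both and fibroblast-rich members. Vtn, which encodes the matrix protein vitronectin, was 348 and 110.2 CPM, 47.1 and 38.2 CPM and 3.07 and 12.9 CPM. Cspg4, the gene of the NG2 proteoglycan, was 164 and 309 CPM, 38.7 and 64.9 CPM and 6.14 and 21.5 CPM, and reached 254 and 109 CPM in smooth muscle barcodes. Enpep, an aminopeptidase that cleaves angiotensin II, was 328 and 265 CPM, 128 and 106 CPM and 3.07 and 30.1 CPM. Ebf1, a transcription factor of mural and stromal cells, did not separate them in this way, since fibroblast barcodes held 821 and 879.9 CPM beside 1393 and 683 CPM in the fibroblast-poor members. Anpep had its highest level in the fibroblast-rich members, at 157 and 112 CPM, against 61.4 and 22.0 CPM in the fibroblast-poor ones. P2ry14 was not counted in the ND fibroblast-poor members and was 44.1 CPM in HFD, the level of 2 UMIs.

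**Figure D2:**
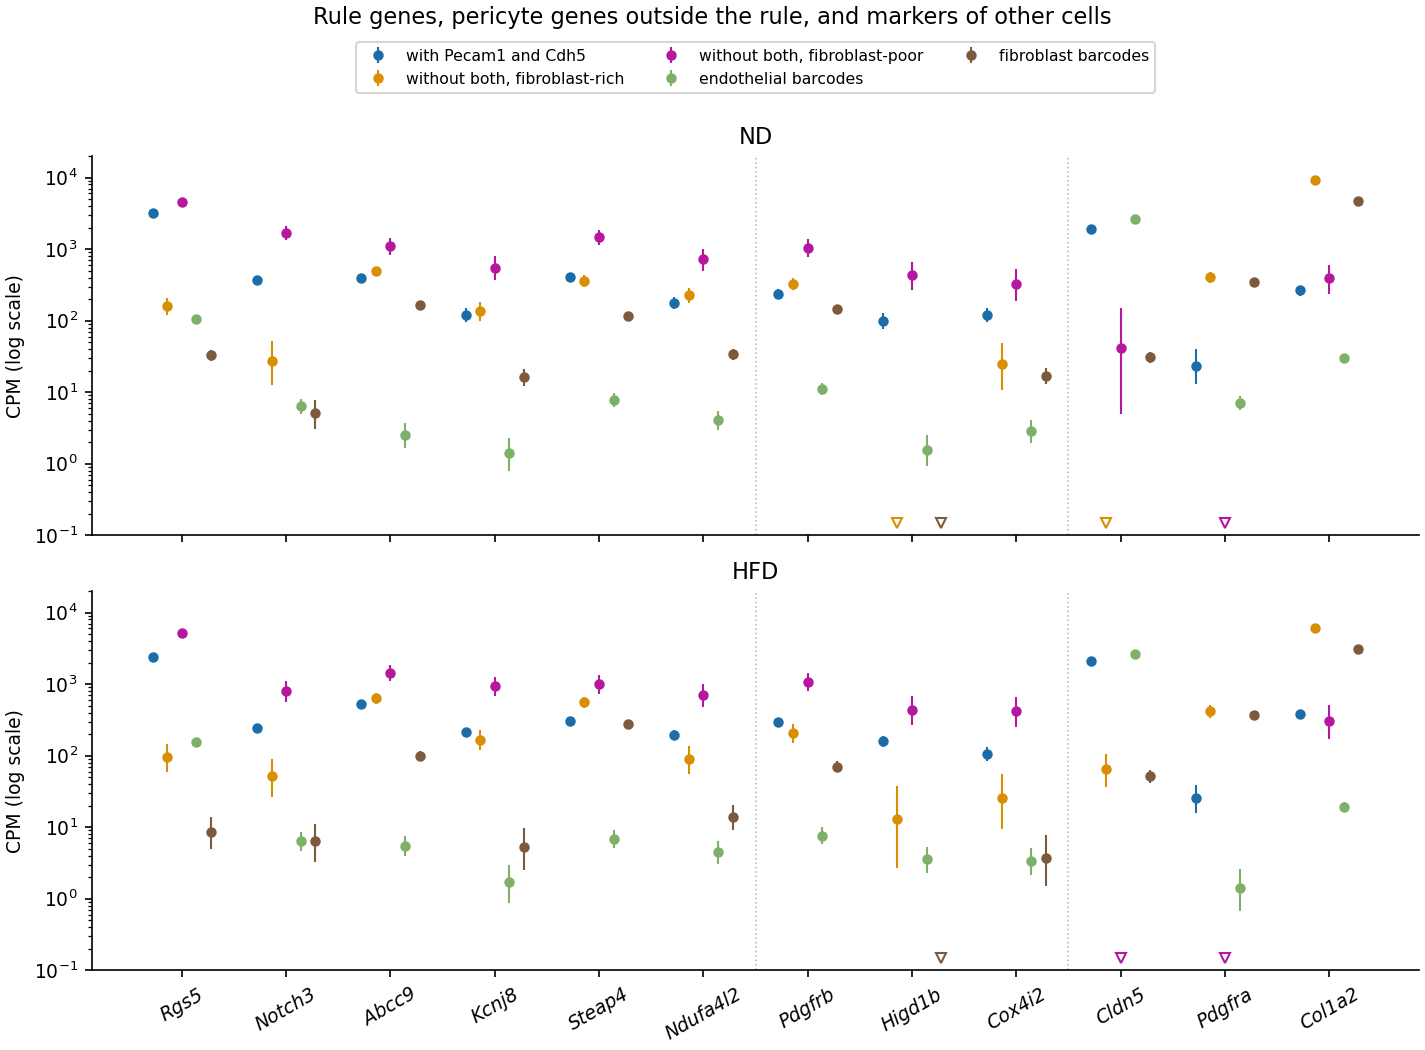
Levels of 12 genes in CPM on a log axis, with exact Poisson 95% intervals, in the 3 kinds of member and in endothelial and fibroblast barcodes of the ND and HFD libraries; open triangles at the bottom mark 0 UMIs, and dotted lines part the rule's genes, other pericyte genes and markers of other cells. Higd1b was 430.1 and 441 CPM in fibroblast-poor members and 0 in fibroblast barcodes, while Pdgfrb was 146 and 69.9 CPM even in fibroblast barcodes.

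Several respiratory chain genes come as a widely used form and a form of particular tissues. The share of the second form among the UMIs of a pair was compared between groups of barcodes, without scaling for gene length. Cox4i2, the subunit 4 form of cytochrome c oxidase tied to oxygen sensing, made up 45.7% (28.8 to 63.4%) of Cox4i1 and Cox4i2 UMIs in ND fibroblast-poor members, 16 of 35 UMIs, and 70.4% (49.8 to 86.2%) in HFD, 19 of 27. The share was 16.8% and 18.0% in the members with both, 4.76% and 4.44% in the fibroblast-rich members, and 0.446% and 0.634% in endothelial barcodes, while smooth muscle barcodes held 16.9% and 7.46%. Higd1b made up 21 of 25 Higd1a and Higd1b UMIs in ND and 20 of 22 in HFD in the fibroblast-poor members, 52.7% and 63.3% in the members with both, 0 of 36 and 3 of 19 in the fibroblast-rich members, and 35.2% and 37.5% in smooth muscle barcodes. For Ndufa4l2 against Ndufa4, of which Ndufa4l2 belongs to the rule, the shares were 77.8% and 88.9% in the fibroblast-poor members, 34.5% and 17.8% in smooth muscle barcodes and 1.29% and 1.45% in endothelial barcodes. By UMIs, Higd1b thus exceeded Higd1a in the fibroblast-poor members of both libraries and in the HFD members with both. In the ND members with both its share of 52.7% (43.0 to 62.2%) had an interval that held an even split. Cox4i2 had more UMIs than Cox4i1 in the HFD fibroblast-poor members, but that interval also held an even split.

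Several genes of vascular tone outside the channel pair, Ednrb not among them, also had higher levels in the fibroblast-poor members than in the other kinds. Gucy1a1 and Gucy1b1, the subunits of the nitric oxide receptor, were 287 and 220.4 CPM and 369 and 419 CPM, against 82.4 and 70.0 CPM and 62.2 and 86.5 CPM in the members with both. Agtr1a, the angiotensin II receptor, was 307 and 176 CPM, and 0.279 and 1.70 CPM in endothelial barcodes. Ednra, an endothelin receptor of mural cells, was 143 and 132 CPM, and Ednrb, which endothelial cells also carry, was 184 and 441 CPM, below the 269 and 494 CPM of the members with both, beside 330.3 and 420.5 CPM in endothelial barcodes and 0 in the fibroblast-rich members. Kcnk3, a background potassium channel, was 512 and 66.1 CPM, Trpc6, a cation channel, 143 and 22.0 CPM, and Cacna1c, the pore of the L-type calcium channel, 205 and 110.2 CPM. P2rx1, a purinergic receptor of arterial smooth muscle, had 0 UMIs in every kind of member and 217 and 76.5 CPM in smooth muscle barcodes. Kcnmb1, the smooth muscle subunit of the BK channel, was 20.5 and 22.0 CPM in fibroblast-poor members, 1 UMI in each library, and 107 and 65.6 CPM in smooth muscle barcodes.

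The ligands and receptors that join endothelium and mural cells were divided between the kinds. Pdgfb had 0 UMIs in the fibroblast-poor members of both libraries and was 203 and 249 CPM in the members with both and 277 and 292 CPM in endothelial barcodes. Dll4, a Notch ligand of endothelium, was 0 and 22.0 CPM in the fibroblast-poor members and 99.2 and 47.1 CPM in the members with both. Jag1, another Notch ligand, was 61.4 and 132 CPM in the fibroblast-poor members. Heyl, a target of NOTCH3, was 307 and 287 CPM in the fibroblast-poor members and 84.1 and 103 CPM in the members with both. S1pr3, a sphingosine 1-phosphate receptor, was 307 and 287 CPM beside 2.04 and 2.26 CPM in endothelial barcodes. Angpt1, which mural cells supply to the endothelial receptor TIE2, was 102 and 44.1 CPM. Of the basement membrane, Col4a1 and Col4a2 were 1699.8 and 904 CPM and 942 and 749 CPM in the fibroblast-poor members, and 1126 and 1419 CPM and 694 and 1055 CPM in endothelial barcodes, so these chains did not set the members apart. Itga7, a laminin receptor subunit, was 307 and 220.4 CPM and had 0 UMIs in the fibroblast-rich members.

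Contractile genes were uneven among the fibroblast-poor members. The 19 genes summed to 15442 CPM in ND and 12300.2 CPM in HFD, between those of the members with both (2129 and 1947 CPM) and the smooth muscle barcodes (33996 and 16737 CPM). The median barcode held 5217 and 3326 CPM, and the highest 49263 and 52632 CPM. Acta2, smooth muscle actin, had 0 UMIs in 9 of 14 ND and 8 of 11 HFD barcodes. Barcodes with at least 10 UMIs, 4 in ND and 2 in HFD, held 99.0% of the 202 ND and 99.4% of the 176 HFD Acta2 UMIs. None of the 4 ND barcodes had a UMI of Higd1b, and 1 of the 2 in HFD had 1. By the contractile rule used for the smooth muscle barcodes, 3 ND and 2 HFD fibroblast-poor members would have counted as smooth muscle. Most fibroblast-poor members thus carried pericyte genes without Acta2, and a few carried both the rule's genes and a high Acta2 count.

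The fibroblast-rich members carried fibroblast genes near the level of fibroblast barcodes. Both groups were chosen by the same 10 fibroblast genes, and the fibroblast-poor members for having fewer of them. The levels of these genes there, Pdgfra among them, were thus largely set by the choice and are a description. Col1a2 and Postn were not among the 10 genes. The 10 fibroblast genes summed to 30473 CPM in ND and 21724 CPM in HFD, against 38119 and 28441 CPM in fibroblast barcodes, 1269.8 and 749 CPM in the fibroblast-poor members and 1606 and 1627 CPM in the members with both. Pdgfra, the fibroblast PDGF receptor, was 405 and 417 CPM in the fibroblast-rich members and 350.3 and 370.3 CPM in fibroblast barcodes, and had 0 UMIs in the fibroblast-poor members. Col1a2, a chain of type I collagen, was 9129 and 6066 CPM, 4751 and 3059.7 CPM and 389 and 309 CPM in the same order. Postn, the gene of periostin, went the other way, with 3011 and 2888 CPM in the fibroblast-poor members, 546 and 559 CPM in the fibroblast-rich members and 239.5 and 228 CPM in fibroblast barcodes. Of all fibroblast-rich barcodes without both Pecam1 and Cdh5, 68 of 1038 (6.55%) passed the rule in ND and 38 of 460 (8.26%) in HFD. The data go against the label for this kind, which had next to no Higd1b and held the pericyte genes outside the rule near the level of fibroblast barcodes, and it is not called pericyte here.

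One HFD fibroblast-rich member held 61381 UMIs, the most of all members and 26.4% of the UMIs of its kind, and with them 372 of the 507 Acta2 and 383 of the 475 Tagln UMIs. Without it, the contractile genes of HFD fibroblast-rich members went from 6169 to 2508 CPM and the fibroblast genes went from 21724 to 26654 CPM. This barcode was singled out after the values were seen.

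The members with both Pecam1 and Cdh5 carried endothelial genes near the level of endothelial barcodes, beside the pericyte genes. The other 18 endothelial genes summed to 9221 CPM (8978 to 9468) in ND and 9513 CPM (9299 to 9731) in HFD, which was 80.0% and 83.6% of the level in endothelial barcodes. The lowest member held 2173 CPM in ND and 1736 CPM in HFD, and no member was without them. In the fibroblast-poor members the list was 942 and 992 CPM, with 12 and 9 of the 18 genes counted, Cldn5 at 41.0 and 0 CPM and Pdgfb at 0. Cldn5, the claudin of endothelial tight junctions, was 1905 and 2083 CPM in the members with both and 2639 and 2650.4 CPM in endothelial barcodes. Compared with the fibroblast-poor members, the members with both held 46.4% and 38.6% of the CPM of the rule's genes and 30.2% and 32.8% of the CPM of the pericyte genes outside it.

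The count of molecules per barcode is set beside these shares. Members with both had medians of 7830 UMIs and 2774.5 genes in ND and 6532 UMIs and 2433 genes in HFD. Endothelial barcodes had 3878 UMIs and 1628 genes in ND and 5348 UMIs and 1907 genes in HFD, and fibroblast-poor members 3255.5 and 4411 UMIs. The sum of the last 2 medians is 7133.5 UMIs in ND, below the median of the ND members with both, and 9759 UMIs in HFD, above that of the HFD ones. Each member with both held on average 43.4 UMIs of the rule's genes in ND and 30.1 in HFD, against 35.1 and 41.3 in a fibroblast-poor member, and 85.7 and 74.0 UMIs of the endothelial list, against 60.005 and 70.5 in an endothelial barcode.

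Scrublet scores each barcode for likeness to simulated pairs of cells. The cut for the highest 6% of scores in each library was met by 354 ND (6.54%) and 187 HFD (6.83%) of all kept barcodes. Among these were 10 of 64 ND (15.6%, 7.76 to 26.9%) and 10 of 101 HFD (9.90%, 4.85 to 17.5%) members with both. The interval of the HFD members held the share of all kept barcodes and that of the ND members did not. The shares were 3.58% and 3.94% of endothelial barcodes, 22.2% and 19.0% of smooth muscle barcodes and 2 of 14 and 1 of 11 fibroblast-poor members. Of the 7 ND and 10 HFD members with both that were also fibroblast-rich, 4 and 5 met the cut. Without the barcodes of those scores, the share of members with both stayed within its interval in both libraries. The part of 2 cells in 1 droplet in the members with both was not tested.

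Among endothelial genes, the members with both held less of those of the aortic lumen than endothelial barcodes did, and a larger sum of the arteriolar list. The 10 aortic luminal genes summed to 511 CPM in ND and 846 CPM in HFD, against 2535 and 2503 CPM in endothelial barcodes. Cytl1 was 5.05 and 2.54 CPM, 3 and 2 UMIs, against 855 and 431 CPM, and Vwf, the gene of von Willebrand factor, was 50.5 and 8.90 CPM against 285 and 207 CPM. The 14 capillary genes summed to 29165 and 42098 CPM, which was 77.7% and 88.8% of the level in endothelial barcodes, and the 10 arteriolar genes to 2736 and 3347 CPM against 1995 and 2868 CPM. The arteriolar list also holds Cxcl12, which was 387 CPM in fibroblast barcodes of both libraries together. It further holds Mgp and Fbln5, which are on the interstitial matrix list too. The 10 fibroblast genes summed to 1606 and 1627 CPM in the members with both, against 395 and 236 CPM in endothelial barcodes. The part of Cxcl12, Mgp and Fbln5 in the arteriolar sum was not tested. Sema3g, an arterial semaphorin, was 193 and 155 CPM against 133 and 146 CPM, so nearly level in HFD. Stc1 was 113 and 106 CPM against 48.1 and 39.7 CPM. Gpihbp1, which holds lipoprotein lipase on the capillary wall, was 1493 and 1539 CPM against 2021 and 1997 CPM.

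**Figure D3:**
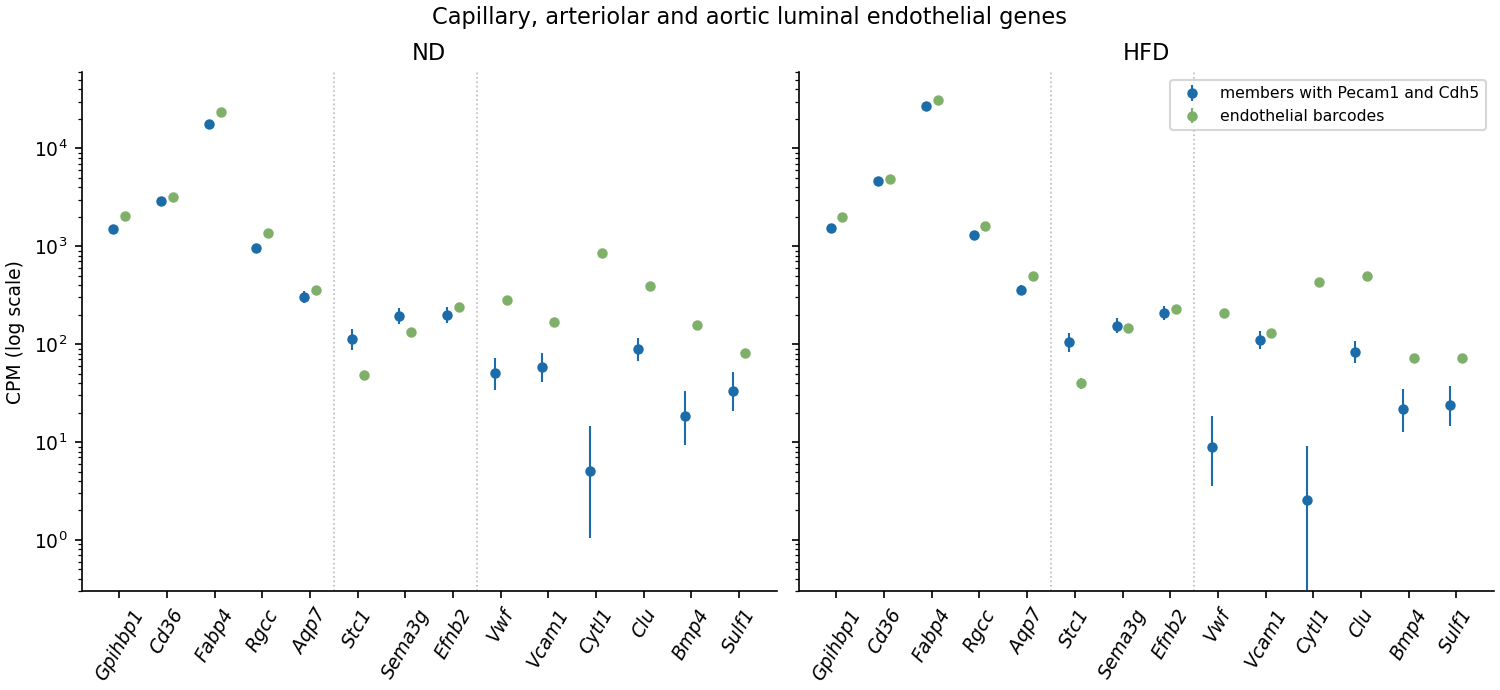
Levels in CPM on a log axis, with exact Poisson 95% intervals, of 14 genes of capillary, arteriolar and aortic luminal endothelium in members with both Pecam1 and Cdh5 (64 in ND, 101 in HFD) and in endothelial barcodes (2067 and 1141). Cytl1 and Vwf were lower in the members in both libraries, while Stc1 was higher in both. Sema3g was higher in ND and nearly level in HFD.

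Cd36, a fatty acid transporter, was counted in the fibroblast-poor members as well, at 839.7 and 948 CPM, in 10 of 14 ND and 10 of 11 HFD barcodes with at most 8 and 9 UMIs per barcode. Endothelial barcodes held 3198 and 4844 CPM. To set it beside RNA that could come from endothelial cells, the ratio to Gpihbp1 was taken: 41 Cd36 UMIs came with 2 of Gpihbp1 in ND and 43 with 2 in HFD, 20.5 (5.32 to 175) and 21.5 (5.60 to 183.2) per Gpihbp1 UMI. In endothelial barcodes the ratio was 1.58 and 2.43, in lymphocyte barcodes 5.31 and 2.16, and in macrophage barcodes (373 and 513, with at least 3 of C1qa, C1qb, C1qc, Cd68 and Csf1r) 14.8 and 9.30. In smooth muscle barcodes it was 4.81 (3.13 to 7.65) and 4.5 (3.26 to 6.34). The ratio in fibroblast-poor members rests on 2 Gpihbp1 UMIs per library, and its interval overlapped those of smooth muscle and macrophage barcodes in both libraries and that of lymphocyte barcodes in ND. Fabp4, a fatty acid binding protein of capillary endothelium and adipocytes, was likewise higher than in endothelial barcodes on this scale. It was 65.5 (17.8 to 547) and 93.0 (25.4 to 774) per Gpihbp1 UMI against 11.6 and 15.5. Smooth muscle barcodes held 46.4 (31.5 to 71.3) and 29.7 (22.2 to 40.8), with intervals that overlapped those of the members in both libraries. Of the lymphocyte and macrophage intervals, only that of ND lymphocyte barcodes overlapped. In the fibroblast-poor barcodes without both that the mitochondrial limit left out, the ratio of Cd36 to Gpihbp1 was lower than in those kept. There, 20 Cd36 UMIs came with 5 of Gpihbp1 in ND and 340 with 79 in HFD. The part of endothelial and macrophage RNA in the Cd36 count was not tested. This ratio was chosen after the values were seen.

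The limit of the rule was looked at once, as a description. Barcodes with exactly 3 of the 6 genes, just inside, numbered 74 in ND and 53 in HFD and held 391 and 478 CPM of Rgs5 and 1309 and 1119 CPM of the pericyte genes outside the rule. Those with exactly 2, among them a channel gene, numbered 198 and 97 and held 174 and 258 CPM of Rgs5 and 1105 and 952 CPM of the list. A further 25 ND and 11 HFD barcodes had 3 or more of the genes but neither Abcc9 nor Kcnj8, with 2865 and 1607 CPM of Rgs5 and 132 and 126 CPM of Higd1b. They held 9886 and 8173 CPM of the contractile genes, against 2036 and 5606 CPM in the barcodes just inside. With 3 of the other 4 genes required, Rgs5 was nearly fixed by the choice.

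The mitochondrial limit of 30% set how many members of each kind remained, and unequally between the libraries. When it was dropped, which was decided after the values were seen, 163 of 7715 ND barcodes (2.11%, 1.80 to 2.46%) and 289 of 9954 HFD barcodes (2.90%, 2.58 to 3.25%) passed the rule. Over barcodes of any number of genes and UMIs, 14 of 25 fibroblast-poor barcodes passing the rule (56.0%, 34.9 to 75.6%) lay within the limit in ND and 11 of 123 (8.94%, 4.55 to 15.4%) in HFD, with median mitochondrial shares of 25.2% and 49.3%. Of the members with both, 64 of 72 (88.9%) and 101 of 133 (75.9%) were kept, and of the fibroblast-rich members 68 of 69 and 38 of 47. Of all barcodes with enough genes and UMIs, 70.2% were kept in ND and 27.5% in HFD. Without the limit, the share of members with both was 44.2% (36.4 to 52.1%) in ND and 46.0% (40.2 to 52.0%) in HFD, so the gap between 43.8% and 67.3% was not seen without the limit.

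**Figure D4:**
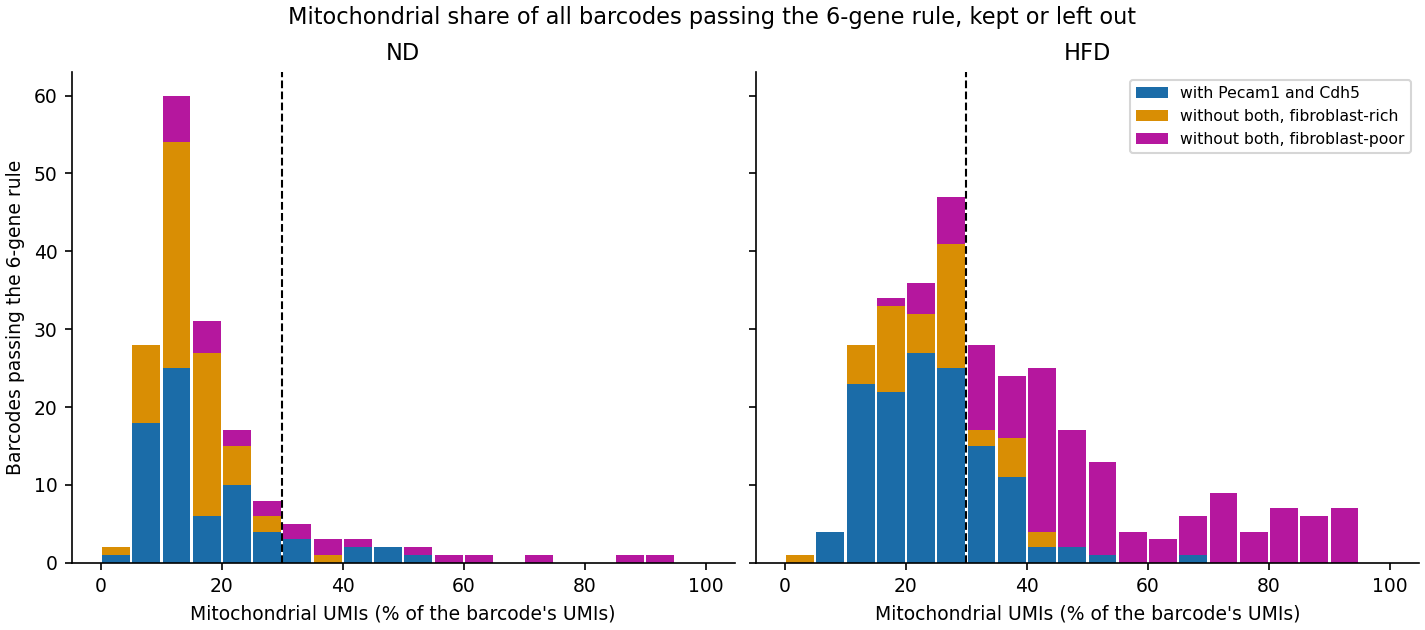
Number of all barcodes that pass the 6-gene rule, at any number of genes and UMIs, by mitochondrial share of their UMIs in percent (horizontal), stacked by kind, in the ND and HFD libraries; the dashed line is the limit of 30%. In HFD, 112 of 123 fibroblast-poor members without both Pecam1 and Cdh5 lie past the line.

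HFD was then set against ND among the members. Genes with at least 50 UMIs over both libraries were examined, and a gene was called where its CPM differed by 2-fold or more, that is by 1 or more on the log2 scale of HFD over ND, on which all ratios below are given. Of 5670 genes in all members, 124 (2.19%) were called higher and 261 (4.6%) lower in HFD, and the median over all 5670 was -0.08. After scaling by the median of ratios, 170 were higher and 202 lower, and leaving out mitochondrial, haemoglobin and ribosomal protein genes gave 169 and 203. The split between higher and lower therefore depended on the scaling, which moved all genes by 0.0991. The mix of kinds differed between the libraries, with fibroblast-rich members at 46.6% in ND and 25.3% in HFD, so values within kinds are given beside those of all members.

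None of the 6 genes of the rule was called in all members (median -0.17), beside 6.79% of all genes in either direction. In the members with both that were fibroblast-poor, 57 in ND and 91 in HFD, none of the 6 was called either, beside 5.86% (221 of 3773 genes). Rgs5 was -0.41 (-0.50 to -0.31) there and 0.18 (-0.09 to 0.45) in the fibroblast-poor members without both. Abcc9 was 0.42 (0.17 to 0.66) and 0.37 (-0.17 to 0.92), and Kcnj8 0.80 (0.39 to 1.23) and 0.78 (0.05 to 1.53), so both channel genes had ratios above 0 in either kind, although the interval of Abcc9 held 0 in the members without both. Notch3 was -0.67 (-0.96 to -0.37) and -1.08 (-1.69 to -0.50), lower in HFD in both. In the fibroblast-poor members without both, where 217 genes had enough UMIs and 48 (22.1%) were called, Notch3 was the 1 gene of the rule that was called. The median over those 217 genes was -0.46, in a kind whose HFD barcodes held 79268 CPM of haemoglobin genes. Relative to that median, Notch3 was -0.62 (-1.23 to -0.04) and no longer called, and Kcnj8 was 1.24 (0.51 to 1.99) and called, while Rgs5 was 0.64 (0.37 to 0.91) and Abcc9 0.83 (0.29 to 1.38). Over all 217 genes the calls then went from 13 higher and 35 lower to 30 higher and 10 lower, so the calls in this kind depended on the scaling. Since the rule asked for these genes, their ratios are a description.

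Of the 25 pericyte genes outside the rule, 21 had enough UMIs in all members and none was called, with a median of -0.00. This count stands beside 6.79% of all genes called in either direction, so few calls among 21 genes would be looked for. Higd1b was 0.74 (0.34 to 1.15) in all members, 0.73 (0.26 to 1.21) in the fibroblast-poor members with both and 0.04 (-0.92 to 0.99) in those without. Pdgfrb was 0.01 (-0.22 to 0.24) in all members. In the fibroblast-poor members with both, 17 were examined and 2 were called lower, beside 3.76% of all genes lower and 2.09% higher, Itga7 at -1.29 (-2.18 to -0.45) and Gm13889 at -1.01 (-1.89 to -0.15). In those without both, 3 were examined, of which Art3 was called higher at 1.17 and Ebf1 lower at -1.03 (-1.69 to -0.39), beside 5.99% and 16.1% of all genes. Relative to the median of -0.46, Art3 was 1.63 and remained called, and Ebf1 was -0.57 and did not.

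The functional lists differed in how many of their genes were called in all members, and each count stands beside 2.19% of all genes called higher and 4.6% lower. Of 13 genes of ion channels and calcium handling, Kcnk3 was called lower, and of 12 vasoactive receptor and cGMP genes, Ednrb was called higher. Of 20 genes of PDGF signalling and mural recruitment, Ephb4 was higher and Tgfb3 lower, and of 11 Notch genes, 10 G protein regulators and 19 immediate early genes none was called. Of 11 genes of respiratory chain pairs Cox7a1 was higher.

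More genes were called in the lists of matrix and of secreted proteins. Of 20 basement membrane genes, Col4a5, Col15a1, Lama2 and Lamc3 were lower, with a list median of -0.35 beside -0.08 for all genes. Of 19 genes of the interstitial matrix, with a median of -0.54, Col1a1, Col1a2, Dcn and Fbln5 were lower and Fn1 was higher. Of 14 angiogenic and paracrine ligands, Vegfa, Mdk, Bmp4, Igf1 and Adm were lower, and of 17 mural transcription factors Foxc2, Prrx1 and Srf. Of 20 chemokines, cytokines and adhesion genes, Ccl7, Cxcl2, Il6 and Vcam1 were higher, and Cxcl9 and Cxcl10 were among those lower. Of 14 fibrosis and scar genes, Timp1, Spp1 and Lgals3 were higher and Ctgf and Tgfbi lower. In endothelial barcodes, Timp1, Spp1, Lgals3, Ccl7 and Il6 were likewise called higher, and Ctgf, Cxcl9 and Cxcl10 lower. Of 17 contractile genes, Tagln and Sncg were higher and Casq2 was lower. In the fibroblast-poor members none was higher. Of 11 examined in those with both, Myh11 and Acta2 were lower, beside 3.76% of all genes. Of 8 examined in those without both, Myl9 was lower, beside 16.1%. The deepest HFD member held 383 of the Tagln UMIs, and 969 of the 1273 Fn1 UMIs of HFD fibroblast-rich members were in 1 barcode, without which Fn1 there went from 5476 to 1777 CPM. In the members with both that were fibroblast-poor, which hold no fibroblast-rich barcode, 1 of 14 basement membrane genes was lower (Itga7), 3 of 13 of the interstitial matrix (Col1a2, Col3a1 and Sparcl1) with Eln higher, and 1 of 8 ligands (Adm) with Rarres2 higher, beside 3.76% of all genes lower and 2.09% higher. Also lower there were 1 of 11 mural transcription factors (Srf), 1 of 8 chemokines, cytokines and adhesion genes (Cxcl9) and 1 of 7 fibrosis and scar genes (Acta2). None in these lists was higher. In the fibroblast-poor members without both, Cxcl2 and Nfkbia were higher and Ebf1 lower among the same lists, beside 5.99% and 16.1% of all genes.

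Kcnk3 was lower in HFD in both kinds that carried it. It had 51 UMIs in ND and 14 in HFD in the fibroblast-poor members with both, a log2 ratio of -2.24 (-3.21 to -1.36), and 25 UMIs in ND and 3 in HFD in those without both, -2.95 (-5.32 to -1.24). In endothelial barcodes the ratio was 0.21 (-0.29 to 0.71). Postn was 0.80 (0.60 to 1.01) in the members with both, with 282 UMIs in 45 of 64 ND barcodes and 650 in 82 of 101 HFD barcodes, -0.06 (-0.41 to 0.29) in the fibroblast-poor members without both and -1.70 (-2.03 to -1.39) in endothelial barcodes. Angptl2, a secreted angiopoietin-like protein, was 1.10 (0.71 to 1.51) in the members with both, with 72 UMIs in 34 ND and 204 in 67 HFD barcodes, 0.94 (0.17 to 1.74) in the fibroblast-poor members without both and -0.72 (-1.36 to -0.11) in endothelial barcodes. Postn and Angptl2 thus had ratios above 0 in the members with both and below 0 in the endothelial barcodes, all with the same ND and HFD libraries. In the fibroblast-poor members without both, the median over the genes examined was -0.46. The interval of Postn there lay above that median and that of Kcnk3 below it. Relative to the same median, Angptl2 was 1.40 (0.63 to 2.20) there and called.

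Ednrb was 0.88 (0.61 to 1.15) in the members with both, with 160 UMIs in 47 of 64 ND and 388 in 91 of 101 HFD barcodes, and 1.26 (0.06 to 2.58) in the fibroblast-poor members without both. Gja4, a connexin of arterioles, was 1.24 (0.65 to 1.86) in the members with both, 0.24 (-1.13 to 1.64) in the fibroblast-poor members without both and -0.83 (-1.02 to -0.64) in endothelial barcodes. For genes that endothelial barcodes carry, both values are given. Slc6a6, the taurine transporter, was 2.70 (2.41 to 3.01) with 102 UMIs in 32 of 64 ND barcodes and 878 in 98 of 101 HFD barcodes, and 3.07 (2.99 to 3.15) in endothelial barcodes, while the fibroblast-poor members without both held 2 and 4 UMIs. Srf, a transcription factor of contractile and immediate early genes, was -1.80 (-2.35 to -1.28) in the members with both and -1.95 in endothelial barcodes. Sparcl1, a matricellular protein, was -1.17 (-1.36 to -0.99), -0.46 in the fibroblast-poor members without both and -1.23 in endothelial barcodes.

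**Figure D5:**
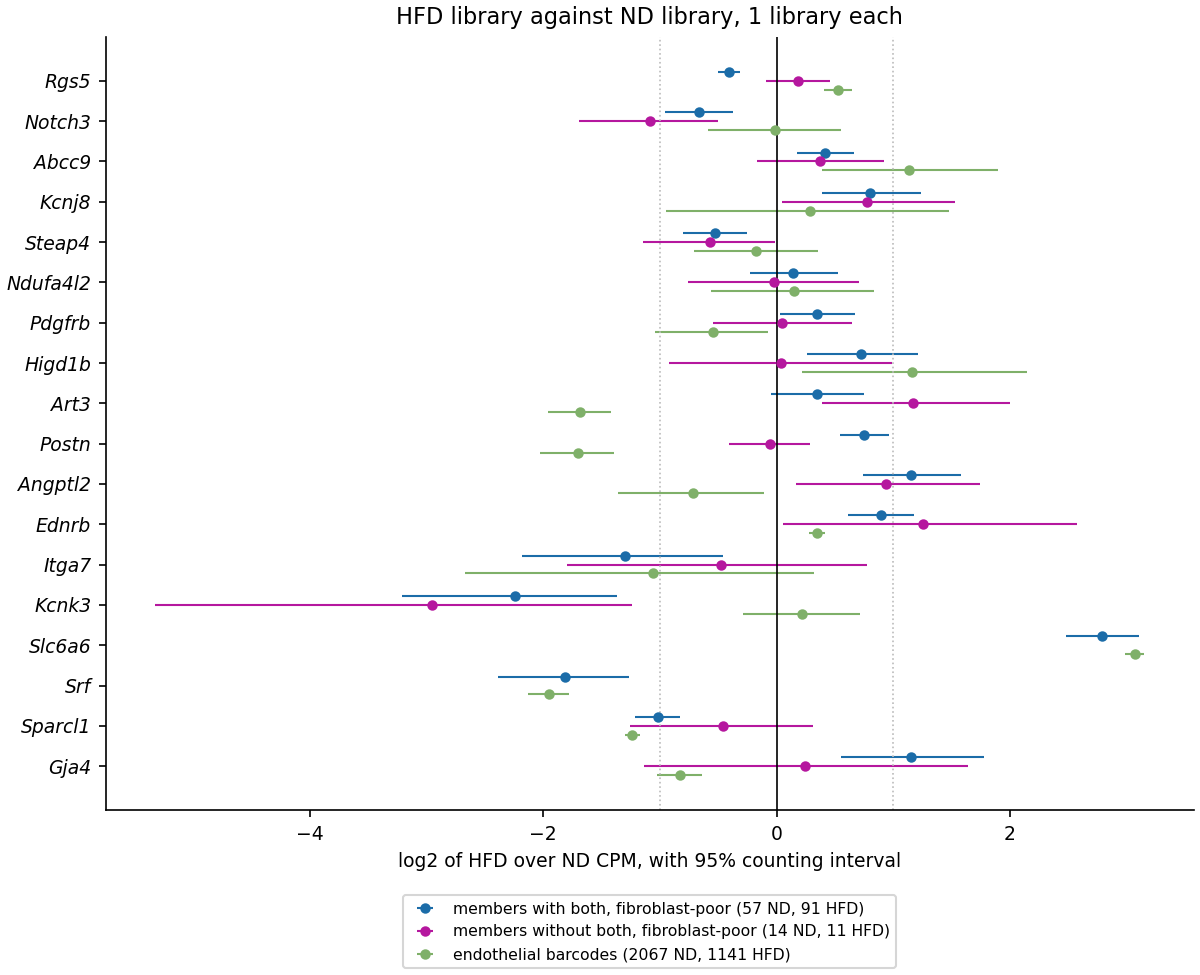
Log2 ratios of HFD over ND with exact 95% intervals for 18 genes in fibroblast-poor members with both Pecam1 and Cdh5 (57 in ND, 91 in HFD), fibroblast-poor members without both (14 and 11) and endothelial barcodes (2067 and 1141), shown where a gene had at least 20 UMIs over both libraries; dotted lines mark 2-fold. Slc6a6 lies above 2-fold and Srf below it in the members with both and in the endothelial barcodes, while Postn and Angptl2 are above 0 in the former and below 0 in the latter.

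The 10 highest and 10 lowest ratios over all members were largely those of genes of other cell types, several of them counted mainly in a single barcode. The highest ratios were those of Wfdc17 (4.30), Prg4 (3.98), Ctss (3.78), Lgals3 (3.63), Il1b (3.53), Gpnmb (3.10), Spef1 (3.07), Cxcl2 (2.92), Wdcp (2.91) and Ucp1 (2.87). In the fibroblast-rich HFD members, the barcode with the most UMIs of each gene held 65 of 90 UMIs of Wfdc17, 64.5% of those of Ctss, 70.5% of Lgals3, 86.5% of Il1b and 93.0% of Gpnmb, genes of macrophages. All 7 macrophage genes that could be examined were called higher in all members, beside 2.19% of all genes, and the 10 genes summed to 266 and 211 CPM in the members with both, 292 and 2800.5 CPM in the fibroblast-rich and 20.5 and 1279 CPM in the fibroblast-poor members. The lowest ratios were those of S100a8 (-7.61) and S100a9 (-6.79), genes of neutrophils with 2845 of 2848 and 99.9% of the ND UMIs in 1 barcode, and of Rbp4 (-5.31), Pdgfrl (-3.68), Fibin (-3.62), Mfap4 (-3.43), Tmem119 (-3.41), Adamtsl2 (-3.38), Fmod (-3.37) and Gstp1 (-3.19). Mfap4 was counted in 56 of 68 ND and 10 of 38 HFD fibroblast-rich members, and Rbp4 in 38 of the 68 in ND.

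Transcripts of other cells differed between the libraries. Haemoglobin genes summed to 1934 and 10668 CPM in the members with both, 119.7 and 9658 CPM in the fibroblast-rich and 164 and 79268 CPM in the fibroblast-poor members, and to 5543 and 35167 CPM in endothelial barcodes. The airway club cell genes, led by Scgb1a1, summed to 178 CPM in ND members and to 0 in HFD members, and to 2804 and 0.283 CPM in endothelial barcodes. Scd1 was -2.50 (-2.83 to -2.18) in the members with both, but 90.7% of its ND UMIs lay in 1 barcode. The part of these transcripts in the ratios above was not tested.

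Members without both were ranked against all other kept barcodes among 1624 genes by the ratio of CPM with 10 CPM added to both sides, with both libraries together. Since the members were chosen by part of these genes, the ranking is a description. The 20 leading genes were Abcc9 (19.2), Kcnj8 (19.2), Ndufa4l2 (15.0), Postn (13.5), Gdf10 (13.1), Notch3 (11.7), Steap4 (11.4), Pdgfrb (11.3), Lum, Sfrp2 (10.9), Col1a1 (10.7), Rgs5 (10.0), then Col1a2, Epha3, Cygb, Fbln7, F3, Angptl2, Myl9 and Adamts2, in which genes of fibroblasts (Lum, Sfrp2, Col1a1) stand among those of pericytes. The fibroblast-poor members alone, ranked in the same way after the values were seen, were led by Notch3 (66.2), Kcnj8 (59.1), Rgs5 (59.0), Postn (44.1), Ndufa4l2 (41.9), Higd1b (37.9), Abcc9 (37.0), Ppp1r14a (35.4), Tbx5 (32.1), Myl9 (31.4) and Pdgfrb (30.3). Tbx5, a T-box transcription factor that was on none of the mural lists, was 553 and 265 CPM in the fibroblast-poor members, 113 and 113 CPM in the members with both and 1.95 and 3.11 CPM in endothelial barcodes.

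Against smooth muscle barcodes, the fibroblast-poor members were led by Kcnj8 (52.3), Steap4 (27.7), Abcc9 (24.6), Lgi1 (18.0), Art3 (17.2), St8sia4 (16.9), Gpsm3 (16.0), Vdr (13.7), Col5a3 (13.1), Meg3 (11.9) and Vtn (11.6). All members without both, set against the same barcodes, were led by Hbb-bs, Abca8a, F3, Dpep1, C3, Sfrp4, Entpd2, Kcnj8, Fbln1 and Svep1, and the smooth muscle barcodes exceeded them most in Sorbs2, Pcp4l1, Nrip2, Podxl, Cdh5, Sncg, Egfl7, Myh11, Pecam1 and Cldn5. The endothelial genes in the last list were thus counted in these smooth muscle barcodes too, with 22.2% and 19.0% of them among the highest doublet scores. Members with both exceeded endothelial barcodes most in Abcc9 (34.6), Steap4 (20.6), Rgs5 (20.2), Notch3 (18.9), Kcnj8 (15.9), Postn (15.7), Cygb (15.5), Aspn (15.3), Pdgfrb (14.2), Ndufa4l2 (13.9), Angptl2 (12.9), Gas1 (12.8), Tnxb (12.5), Meg3 (12.3) and Higd1b (11.5), in which all 6 genes of the rule stand beside genes that fibroblasts also carry, such as Aspn and Tnxb. Fibroblast-rich barcodes had been left out of the endothelial barcodes but not of the members with both, so the excess in fibroblast genes is partly set by this choice.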

How the data were processed

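Gene expression was measured by droplet single-cell RNA sequencing, with a single library for each diet. UMI counts per gene and barcode, deposited by the authors, were made with Cell Ranger (3.0.1 in the file headers), with no normalization, for 10234 ND and 14225 HFD barcodes and 31053 genes. The submitters' processing notes also name bcl2fastq, UMI-tools, Seurat 3.2.0, R 4.0.0 and the build mm10. A joined table of both libraries was not used.

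The study's limits were applied to barcodes, with no fewer than 200 genes and 200 UMIs and mitochondrial UMIs not above 30%, which left 27137322 and 17191279 UMIs. Samples were grouped by the diet in the labels. Sums of UMIs per library and group of barcodes were scaled to CPM by the group's total. No test between diets was run. Scrublet (scanpy 1.11.5, expected rate 6%) called 0 ND and 1 HFD barcode and so had not worked, and the 6% of barcodes with the highest scores were used in its place. The calls were tried on simulated Poisson sums, in which 200 of 5682 genes were changed by 2 on the log2 scale. Of the changed genes 100% were called, and of the unchanged ones 0.255%. The simulation had no variation between barcodes, so it does not show how calls behave for genes held mostly by a single barcode. Python 3.11.15, numpy 2.4.6, scipy 1.17.1, pandas 2.3.3 and matplotlib 3.10.9 were used.

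Members, lists and rules were chosen with earlier results of these data known. Named were the rule's genes, members of the lists by role with at least 20 UMIs, the 10 largest rises and falls in all members with at least 50 UMIs over both libraries and at least 4 in each, and the 20 largest ratios of members without both over other kept barcodes and 10 over smooth muscle barcodes in each direction, among genes counted in at least 25% of the barcodes ranked. Genes outside this rule, such as Slc6a6, Srf, Tbx5 and Scd1, were chosen after their values were seen. Alternatives changed the limits, the rule, the split, doublets, depth, scaling and weighting.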

Additional observations from a re-analysis of the deposited data

Results flagged for a closer look

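Barcodes that the filter left out also carried the genes of the rule. Of 4818 ND barcodes left out, 20 passed the rule (0.415%, 0.254 to 0.640%), and of 11486 HFD barcodes left out, 153 passed (1.33%, 1.13 to 1.56%). A count of 0 would have allowed shares of up to 0.0623% and 0.0261%. All 20 and 153 exceeded the mitochondrial limit, with medians of 44.0% and 44.6% mitochondrial UMIs, and 17 and 139 of them met the other limits. They held medians of 1648.5 and 2557 UMIs. Both Pecam1 and Cdh5 were found in 8 and 32 of them, 1 and 9 were fibroblast-rich without both, and 11 and 112 were fibroblast-poor without both.

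The 112 HFD barcodes of the last kind were set beside the 11 kept HFD fibroblast-poor members, as counts per 1e6 UMIs outside mitochondrial genes. Rgs5 was 8599.8 in those left out and 6824 in those kept, Notch3 1886 and 1054, Abcc9 3069 and 1904, and Kcnj8 1941 and 1259. Outside the rule, Higd1b was 978 and 586, Pdgfrb 2327 and 1435, Acta2 458 and 5155, Col1a2 221 and 410.0, and Pdgfra 7.89 and 0. The 11 ND barcodes left out, with 14340 UMIs together, held 8996 of Rgs5, 2685 of Notch3 and 3088 of Abcc9 on the same scale. The pericyte genes outside the rule were thus present in the barcodes left out, of which there were more than members kept of the same kind in HFD. The part of damaged cells in these counts was not tested.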

How the results depend on the processing

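No paired analysis was possible because each diet had 1 library, and for the same reason no replicate could be left out. Dropping the mitochondrial limit, keeping only fibroblast-poor members and leaving out the deepest HFD member were chosen after the data were seen. The share of barcodes passing the rule was 2.70% in ND and became 3.43% at a mitochondrial limit of 20%, 1.33% with at least 4 rule genes, 6.35% with at least 2 rule genes, 1.24% with both channel genes required, 0.616% after thinning to 1000 UMIs and 2.11% without a mitochondrial limit. In HFD it was 5.48% and became 3.54% with at least 4 rule genes, 9.02% with at least 2 rule genes, 2.92% with both channel genes required, 1.64% after thinning to 1000 UMIs and 2.90% without a mitochondrial limit. It was the higher in HFD under each of these. The share of members with both Pecam1 and Cdh5 was 43.8% in ND and became 65.3% with at least 4 rule genes and 18.2% after thinning to 1000 UMIs, and in HFD it was 67.3% and became 83.5% with at least 4 rule genes, 24.4% after thinning to 1000 UMIs, 58.0% with at least 2 UMIs of Pecam1 and of Cdh5 and 46.0% without a mitochondrial limit.

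The contractile level was 2529 CPM in ND over all members and became 3163 in members without both, 2129 in members with both, 2998 with at least 4 rule genes, 3374 in fibroblast-poor members, 3253 without mitochondrial, haemoglobin and ribosomal protein genes and 2898 as the mean of barcodes. In HFD it was 3311 CPM and became 7170.0 in members without both, 1947 in members with both, 2042 with at least 4 rule genes, 4386 at a mitochondrial limit of 20%, 2431 in fibroblast-poor members, 2511 without the deepest member, 3067 without a mitochondrial limit, 4561 without mitochondrial, haemoglobin and ribosomal protein genes and 2438 as the mean of barcodes. The level of pericyte genes outside the rule was 2411 CPM in ND over all members and became 2309 in members without both, 3461 with at least 4 rule genes, 3029 in fibroblast-poor members, 3102 without mitochondrial, haemoglobin and ribosomal protein genes and 2800.5 as the mean of barcodes. In HFD it was 2318 CPM and became 2980.5 with at least 4 rule genes, 1941 at a mitochondrial limit of 20%, 2735 in fibroblast-poor members, 3111 without a mitochondrial limit, 3193 without mitochondrial, haemoglobin and ribosomal protein genes and 2669 as the mean of barcodes. The endothelial level was 5809 CPM in ND over all members and became 392 in members without both, 9221 in members with both, 6782 with at least 4 rule genes, 8687 in fibroblast-poor members, 7472 without mitochondrial, haemoglobin and ribosomal protein genes and 4079 as the mean of barcodes. In HFD it was 7162 CPM and became 508 in members without both, 9513 in members with both, 8388 with at least 4 rule genes, 7324 at a mitochondrial limit of 20%, 9374 in fibroblast-poor members, 7580.0 without the deepest member, 6214 without a mitochondrial limit, 9866 without mitochondrial, haemoglobin and ribosomal protein genes and 6314 as the mean of barcodes. The number of genes higher in HFD by 2-fold or more was 124 and became 73 in fibroblast-poor members, 289 among genes with at least 20 UMIs and 36 among genes with at least 200 UMIs. The number lower was 261 and became 133 in members with both, 173 with at least 4 rule genes, 155 in fibroblast-poor members, 611 among genes with at least 20 UMIs and 71 among genes with at least 200 UMIs. In the fibroblast-poor members without both, 13 genes were higher and 35 lower, which became 30 and 10 relative to the median of the genes examined, an alternative chosen after the data were seen. Of the alternatives to these values, 68 moved them past their interval or, for counts of genes, by over 1.5 times, and 42 did not. The cause was not tested, apart from the alternatives that by construction hold other barcodes. In the 25 fibroblast-poor members without both, 1 UMI is worth 20.5 CPM in ND and 22.0 CPM in HFD, so genes at these levels cannot be told from 0 there.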
